A study of Drosophila melanogaster with 4 samples.

Results

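The regions described here are the stretches enriched for H3K9me2 on the euchromatic part of 2L, the left arm of the second chromosome of Drosophila melanogaster. A member is an enriched region of the combined list that lies on 2L and ends at or before position 20011544, which leaves out the last 3 Mb of the 23.0 Mb arm sequence of FlyBase release 5. This gave 501 members of 5614 enriched regions in all, and 0 of the regions named as depleted lay on 2L. The same interval held 223 of 3667 regions in the list of ChIP replicate 1 and 278 of 4728 in that of replicate 2.

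The study profiled wild-type Oregon-R-modENCODE animals as 3rd instar larvae, from which nuclei were taken for chromatin immunoprecipitation and sequencing (ChIP-seq) with the antibody labelled H3K9me2 antibody2. There were 2 ChIP libraries and 2 input libraries. Input is sheared chromatin without immunoprecipitation, and each input served as the background of the ChIP library with the same number. All animals shared strain, genotype and stage, and no treatment was given, so the question is where along the arm the mark lies and how repeatably. Larval tissue mixes many cell types, and a region with a weak score in a mixture cannot be told apart from a strong one in few cells. The labels do not say whether the replicates came from separate collections of larvae, and their spread may therefore be technical only.

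H3K9me2 is the dimethylated form of lysine 9 of histone H3, placed by methyltransferases such as Eggless and G9a and bound by heterochromatin protein HP1a. It is a mark of silent, compact chromatin, and in flies it is dense around the centromeres and on the small chromosome 4. On the gene-rich arms it is sparse, and it is known there mainly from transposon insertions and a few repeated or silenced stretches. The files give positions and scores without gene or repeat names, and no annotation of release 5 was used here, so regions are named by position.

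On the euchromatic 2L the mark occurred as short, scattered islands. The lists of replicates 1 and 2 covered 3.00% and 3.52% of the 20.0 Mb interval, a mean of 3.26% ± 0.368 (SD, n = 2), and the combined list covered 6.18%. The replicates had 250.5 ± 38.9 regions, or 12.5 ± 1.94 per Mb (SD, n = 2), against 25.04 per Mb in the combined list. The combined list held exactly as many regions as both replicate lists added together, although it was not their union, and its members had a lower median length. Depth is unknown, since no read counts accompany the regions.

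Most regions were short. The median length was 2032 bp in replicate 1 and 2013 bp in replicate 2, and the middle 50% of regions ran from 1600.5 to 2993 bp and from 1591 to 2673 bp. In the combined list the median was 1833 bp and the shortest member had 1001 bp, below the 1303 bp of the shortest replicate region on this stretch. Regions over 5000 bp numbered 17 of 223 in replicate 1, 15 of 278 in replicate 2 and 37 of the 501 members. They were 6.51% ± 1.58 of the replicate regions and held 20.6% ± 2.43 of the covered bases (SD, n = 2 for each).

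The score is the authors' enrichment value for a region, and its scale is not stated in the sources used here. Within each whole list, many pairs of scores differed by exactly 1 (to within 1e-09): the combined list had 1992 such pairs, replicate 1 had 1658 and replicate 2 had 5337. A difference of the base 10 or the natural logarithm of 2 occurred in 0 pairs of any list. Differences of the base 2 logarithm of 3 occurred in 1582 pairs of the combined list, 1109 of replicate 1 and 4165 of replicate 2. The values therefore lie on a log2 scale, where 1 score unit is a doubling of the underlying quantity, while the zero point and the quantity itself remain unstated. Members had a median score of 0.43, against 0.63 for the regions of replicate 1 and 0.61 for those of replicate 2, and the middle 50% of members scored between 0.37 and 0.51. Whether the lists share a zero point is not stated, so score levels describe each list on its own. Scores over 1 were rare, with 33 of 223 regions in replicate 1, 15 of 278 in replicate 2 and 23 of 501 members. Longer regions scored higher, with a Spearman rho of length and score of 0.70 over the regions of replicate 1, 0.66 in replicate 2 and 0.48 over the members, which is a description across regions that share libraries.

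Along the arm, coverage was high and low in the same places in both libraries. In windows of 1 Mb, numbered from the distal end (the telomere) towards the centromere, coverage ranged from 0.411% to 6.48% in replicate 1 and from 0.403% to 7.69% in replicate 2. Both libraries had their highest window at 10 to 11 Mb and their lowest at 15 to 16 Mb. Across the 20 windows the coverages of the libraries had a Spearman rho of 0.98, given as a description of 2 libraries called in the same way. Replicate 2 had the higher coverage in 16 of the 20 windows.

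**Figure D1:**
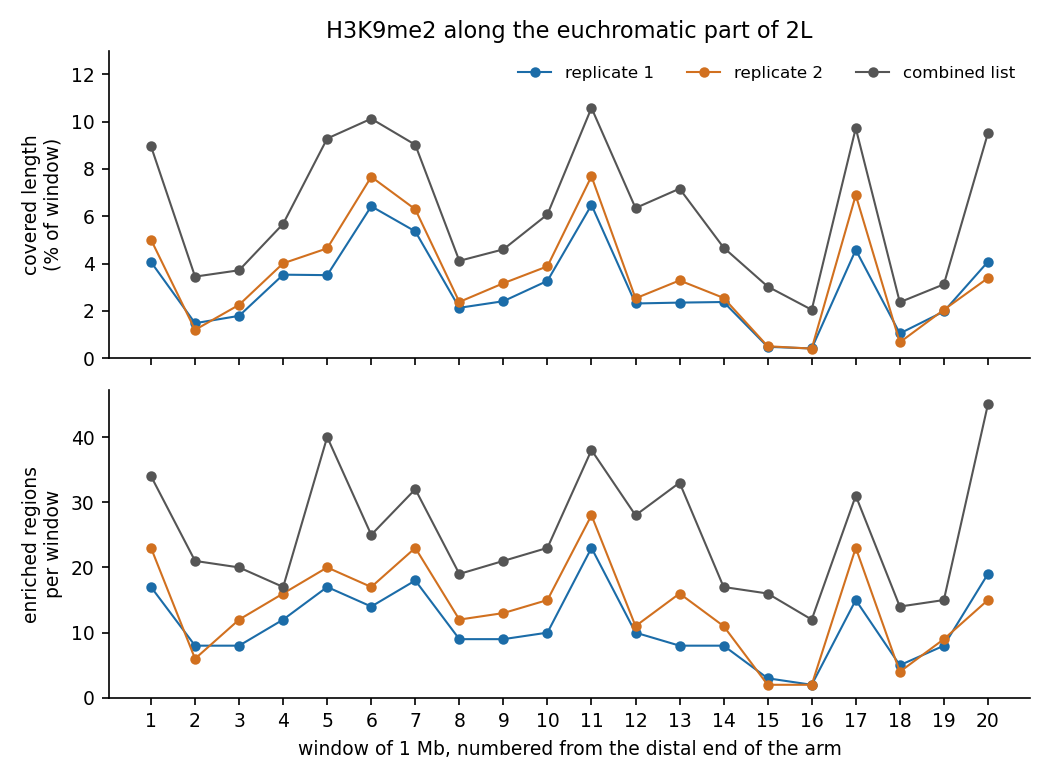
Covered length as a percentage of each 1 Mb window (top) and number of enriched regions per window (bottom) along the euchromatic 2L, numbered from the distal end, for replicate 1, replicate 2 and the combined list. Coverage in all 3 lists peaks in window 11, with 10.6% in the combined list, and the replicates are lowest in windows 15 and 16, at under 0.6% each.

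Coverage was highest in 4 of the windows. The window from 10 to 11 Mb was covered over 7.08% ± 0.857, that from 5 to 6 Mb over 7.05% ± 0.881, that from 6 to 7 Mb over 5.83% ± 0.661 and that from 16 to 17 Mb over 5.74% ± 1.64 (SD, n = 2 for each). The most distal window, next to the telomere, had 4.54% ± 0.667 (SD, n = 2), above the mean of the interval. The window nearest the excluded pericentric part had 3.73% ± 0.488 (SD, n = 2), although it held 45 members, more than any other window. Of those 45, 24 were overlapped by neither replicate list. High member counts in the combined list thus did not always go with high coverage in the replicates.

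When the interval was cut into 3 equal parts of 6.67 Mb, the one nearest the excluded pericentric part had the lowest coverage. This order was computed with the 3 Mb border only. With all but the last 2 Mb, coverage of the whole interval rose from 3.26% to 3.91% ± 0.321 (SD, n = 2), so the stretch added at the proximal end was denser. The parts were not recomputed with another border. Coverage was 4.08% ± 0.458 in the distal part, 3.56% ± 0.528 in the middle part and 2.15% ± 0.117 in the proximal part (SD, n = 2 for each). The proximal part was the lowest in each library, with 2.06% in replicate 1 and 2.23% in replicate 2. Within each library the distal part also exceeded the middle part, by 0.568 percentage points in replicate 1 and 0.469 in replicate 2, a mean of 0.518 ± 0.0700 (SD, n = 2). The proximal part lay below the middle part by more, with a difference of -1.42 percentage points ± 0.411 (SD, n = 2). Part of the low value came from the windows between 14 and 16 Mb: without them the proximal part was covered over 2.87% ± 0.165 (SD, n = 2), still below the middle part in each library. Median scores differed little between the parts, with 0.62 to 0.65 in replicate 1 and 0.61 in each part in replicate 2. Median lengths from distal to proximal were 1858, 2119 and 2066 bp in replicate 1. They were 2019.5, 2014 and 1900.5 bp in replicate 2, so the order of the parts differed between the libraries.

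The emptiest part of the arm lay between about 14 and 16 Mb. Replicate 1 had no region from 14081290 to 15779278, a stretch of 1.70 Mb and its longest empty one. Replicate 2 had 2 regions in it, of 1584 bp (score 0.45) and 1894 bp (score 0.25), which covered 0.205% of the stretch. The combined list placed 19 members inside it, of which 17 were overlapped by neither replicate list and 2 by replicate 2 alone. The median of those 19 was 1421 bp in length and 0.39 in score, and they covered 1.69% of the stretch. The longest gap of replicate 2, of 786.5 kb (15040144 to 15826686), overlapped the same stretch.

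Stretches empty in all 3 lists were shorter. The 5 longest measured 470.2 kb (15252529 to 15722731), 388.0 kb (3522547 to 3910525), 288.1 kb (18156004 to 18444101), 274.9 kb (8679041 to 8953947) and 274.3 kb (14763923 to 15038245). The same 5 places were the longest empty ones in the combined list alone, where the third measured 288.2 kb and a region of replicate 2 reached into it. Stretches over 100 kb with no region in any list numbered 53 and made up 43.5% of the interval. With the replicate lists alone, stretches over 100 kb numbered 63 in replicate 1 and 67 in replicate 2, over 73.0% and 68.4% of the interval. Of 200 windows of 100 kb, 30 were empty in all lists, 29 more were empty in both replicates but not in the combined list, 33 were touched in 1 replicate, and 108 were touched in both.

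Spacing was uneven, with close neighbours and long gaps both common. The median gap between neighbouring members was 15.8 kb, against 41.7 kb in the list of replicate 1 and 29.0 kb in that of replicate 2. The mean gap was larger, at 37.4 kb between members, 86.5 kb in replicate 1 and 68.9 kb in replicate 2, since gaps over 100 kb took up much of the arm. Gaps of at most 10 kb were 42.0% of the gaps between members, 25.7% of those of replicate 1 and 30.7% of those of replicate 2. Gaps under 1 kb, which part regions that nearly touch, numbered 70 between members, 17 in replicate 1 and 25 in replicate 2. In windows of 100 kb the variance of the region count was 2.45 times its mean for the members, 1.71 times for replicate 1 and 2.13 times for replicate 2, a measure that is near 1 for evenly random placement.

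**Figure D2:**
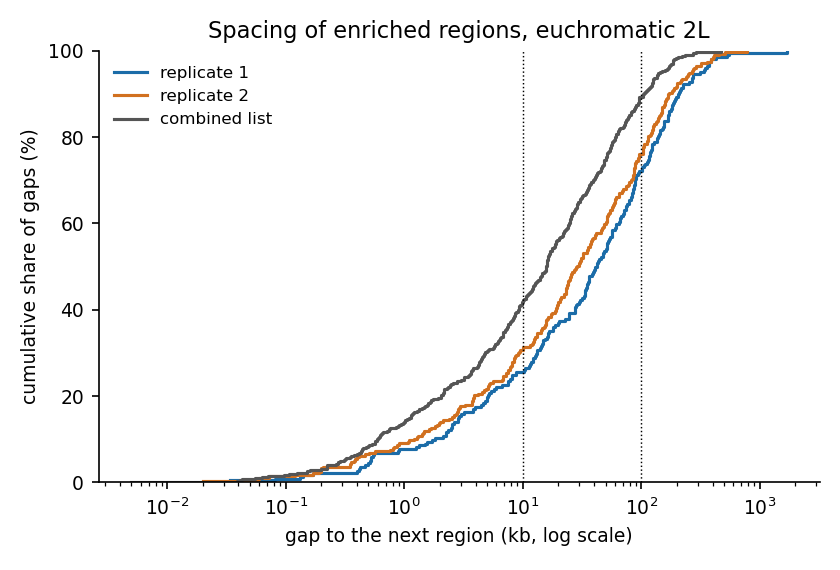
Cumulative share of gaps between neighbouring regions (vertical, %) by gap size (horizontal, kb, log scale) for replicate 1, replicate 2 and the combined list on the euchromatic 2L. Dotted lines mark 10 kb and 100 kb. The replicate curves lie to the right of the combined one, with medians of 41.7 and 29.0 kb against 15.8 kb.

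Regions were joined into chains where successive gaps were at most 10 kb. The 501 members formed 291 groups: 190 single regions, 59 pairs and 42 chains of at least 3. The chains held 193 members (38.5%) and 40.4% of the covered bases, had a median span of 20.3 kb and spanned at most 70.0 kb. In the replicate lists chains were fewer, with 13 in replicate 1 and 20 in replicate 2, holding 19.7% and 27.0% of the regions. Of the 42 chains, 27 contained regions of both replicates, 13 of a single one and 2 of neither. Chain membership did not go with better replicate support: both replicates overlapped 23.8% of chained members, 40.7% of paired members and 35.3% of single members.

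The chain with the most covered bases lay at 5128340 to 5184810. Its 4 members covered 43.7 kb of 56.5 kb, and the replicates covered 51.8% and 73.4% of the span. A second chain near it, at 5004778 to 5039086, had 5 members over 22.8 kb and had 51.5% of its span in regions of replicate 1 and 49.9% in those of replicate 2. Another, at 4934234 to 4965932, had 4 members over 18.6 kb and was covered over 32.3% and 42.4%. Adjoining 100 kb windows from 4900001 to 5200000 were all 3 covered by at least 10% in both libraries, with 12.04% ± 2.57, 22.8% ± 0.675 and 39.9% ± 8.65 from distal to proximal (SD, n = 2 for each). The last of these was the best covered 100 kb window of the interval in each replicate.

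The other large chains were spread along the arm. At 10323308 to 10379906, 7 members covered 32.2 kb, and the replicates covered 37.1% and 46.9% of the span with 6 and 9 regions. At 9972636 to 10003558, 6 members covered 24.2 kb, with 43.8% and 55.1% of the span in the replicates. At 16767334 to 16790674, 3 members covered 21.1 kb, and the replicates differed most there, with 44.3% in replicate 1 against 81.3% in replicate 2. The remaining chains of the 8 largest rested more on the combined list. That at 915146 to 985156 had 12 members, the most of any chain, over 30.3 kb, but the replicates covered only 12.03% and 14.2% of it. That at 19511572 to 19574616 had 9 members over 26.3 kb, with 11.8% and 17.8%, and 6 of its members were overlapped by neither replicate list. Of all 100 kb windows, 9 were covered by at least 10% in both replicates, and these held 27.8% ± 0.862 of the covered bases (SD, n = 2).

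The longest member was a single domain of 27.2 kb (5157660 to 5184810), with a score of 1.48. Replicate 1 covered it over 96.4% with regions of 17.3 kb (score 1.55) and 8.89 kb (score 1.15), and replicate 2 over 98.2% with regions of 21.1 kb (score 1.64) and 5.61 kb (score 1.16). Both libraries split it once and gave the distal piece the higher score, with the split at 5175564 to 5175647 in replicate 1 and at 5178703 to 5178763 in replicate 2.

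The next longest members differed in how well each library traced them. The 13.5 kb member at 16777194 to 16790674 (score 1.06) had 76.8% of its length in regions of replicate 1 and 100% in those of replicate 2. The 12.9 kb member at 3000716 to 3013652 (score 0.59) was covered over 74.2% and 74.0%, in 3 and 4 pieces. The 11.5 kb member at 10345530 to 10357046 (score 0.94) was covered over 66.6% and 85.5%, and the 10.4 kb member at 5028644 to 5039086 (score 0.89) over 97.5% and 88.7%. In others the combined region was much longer than what the replicates called. At 933784 to 945418 (11.6 kb, score 0.50) the replicates covered 25.9% and 28.4%. At 5128340 to 5139482 (11.1 kb, score 0.50) replicate 1 covered 15.4% and replicate 2 covered 96.2%. At 357654 to 367962 (10.3 kb, score 0.74) the order was turned, with 92.8% in replicate 1 and 42.3% in replicate 2.

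Among members overlapped by both replicate lists, 4 stood together at the top of the score with nearly the same length. They lay far apart, at 6991580 to 6996866 (5287 bp, score 2.32), 9975554 to 9980600 (5047 bp, score 2.24), 12558612 to 12564090 (5479 bp, score 2.23) and 16513686 to 16519110 (5425 bp, score 2.18). These, with the others in this paragraph, were picked after their values were seen. In replicate 1 their regions measured 4119, 4096, 4937 and 4122 bp, with scores of 2.41, 2.36, 2.20 and 2.24. In replicate 2 they measured 4311, 4055, 4269 and 4090 bp, with scores of 1.99, 1.97, 2.11 and 1.94. A member that replicate 1 alone overlapped, at 16141212 to 16146006 (4795 bp, score 2.19), was close to the 4 in length and score. No other matched pair on this stretch scored as high in both libraries. The next 4 scored between 1.48 and 1.75, at 3251570 to 3259386 (7817 bp), 15826628 to 15828836 (2209 bp), 11540988 to 11548366 (7379 bp) and the 27.2 kb domain. The short one at 15826628 lies beyond the longest stretch without a region of replicate 1 and closes the longest gap of replicate 2. It lay within replicate 1 over 99.6% of its length and within replicate 2 over 96.9%.

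The 4 highest scores among the members belonged to ones that neither replicate list overlapped. They were 15722732 to 15724544 (1813 bp, score 3.77), 10139972 to 10140972 and 13452516 to 13453516 (1001 bp and score 3.45 for each), and 18060022 to 18061022 (1001 bp, score 2.77). The eighth highest, at 10141918 to 10143210 (1293 bp, score 2.21), was also in neither list. The scores 3.77 and 2.77 differed by exactly 1 to within 1e-09, and the scores of 3.45 were equal. The score of 3.77 was also the highest of the combined list on 3L and on X, each without its last 3 Mb, so it is not particular to 2L. In replicate 1 the top score on 2L, 3.44, was reached at the members 11315582 to 11318452 (2871 bp) and 16141212 to 16146006 (4795 bp). Replicate 2 overlapped neither of these members, and both were over 2000 bp long. Across the list 35 of the 501 members shared their score with another one, and the most frequent score, 0.45, occurred 5 times. Of the 8 members with a score over 1 and a length of at most 2000 bp, 7 were in neither replicate list and 0 in both, whereas of the 15 with a score over 1 and a length over 2000 bp, 13 were in both and 0 in neither.

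**Figure D3:**
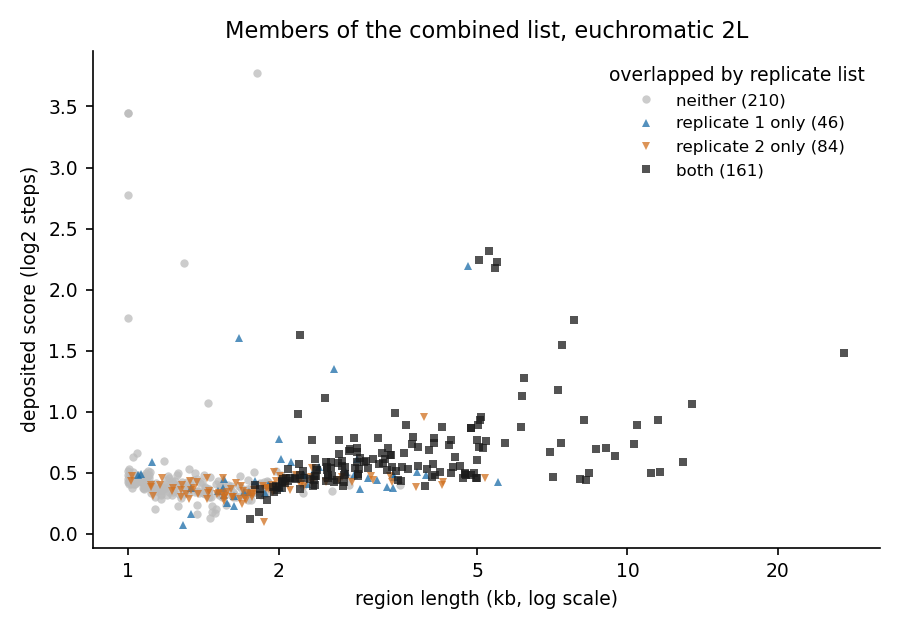
Deposited score (vertical, in log2 steps) against length (horizontal, kb, log scale) for the 501 members, marked by which replicate list overlapped them. Members in both lists run up to 27.2 kb, and the 4 at 5.05 to 5.48 kb with scores above 2.1 score highest among them. A member in replicate 1 alone lies near these 4, at 4.795 kb and a score of 2.19. The highest scores, at 1.0 to 1.8 kb, are in neither list.

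Both replicate lists overlapped 161 of the 501 members by at least 1 bp, 32.1% (95% Wilson interval 28.2 to 36.3, counting error only), against a background of 43.5% over all regions of the combined list. Replicate 1 alone overlapped 46 members and replicate 2 alone 84. Neither overlapped 210, or 41.9% (37.7 to 46.3), against a background of 33.2%. The combined list was made from the same libraries, so these shares describe how the lists were called and are no independent check. The 161 members in both lists held 54.5% of the covered bases and the 210 in neither held 23.7%.

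Support rose with length throughout and with score except in the highest range. Longer members meet an overlap of at least 1 bp more easily, so the rise with length is partly built in. Which of length and score went more closely with support was not tested. Both lists overlapped 0 of 121 members under 1300 bp, 10 of 167 from 1300 to 2000 bp, 116 of 176 over 2000 and up to 5000 bp and 35 of 37 over 5000 bp. Members in both lists had a median of 3273 bp and a score of 0.55, those in replicate 1 alone 2021 bp and 0.44, those in replicate 2 alone 1748 bp and 0.38, and those in neither 1301 bp and 0.40. By score, both lists overlapped 16 of 189 members up to 0.4, 42 of 174 from 0.4 to 0.5, 90 of 115 from 0.5 to 1 and 13 of 23 above 1. The last range includes the short, high-scoring members above.

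Support also varied along the arm, but it is limited by how many replicate regions a window holds and so partly repeats the coverage given above. Replicates 1 and 2 had 23 and 28 regions from 10 to 11 Mb, against 3 and 2 from 14 to 15 Mb and 2 and 2 from 15 to 16 Mb. Both lists overlapped 21 of 38 members from 10 to 11 Mb (55.3%) and 17 of 32 from 6 to 7 Mb (53.1%). The lowest values were 1 of 16 from 14 to 15 Mb and 1 of 12 from 15 to 16 Mb, followed by 3 of 28 from 11 to 12 Mb (10.7%), next to the window with the best support.

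Compared with each other, the replicate lists shared 451.0 kb of 855.1 kb covered in either, a Jaccard index of 0.527. The shared part made up 75.04% of what replicate 1 covered and 64.0% of what replicate 2 covered. By region, replicate 2 overlapped 171 of the 223 regions of replicate 1 (76.7%), and replicate 1 overlapped 175 of the 278 of replicate 2 (62.9%). All 17 regions over 5000 bp of replicate 1 and all 15 of replicate 2 were overlapped by the other list. Regions in a single list were short, with medians of 1602 bp for the 52 of replicate 1 and 1631 bp for the 103 of replicate 2, against 2222 and 2459 bp for the shared ones. A few regions were missing from the combined list, 1 of replicate 1 and 12 of replicate 2.

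Where each list had exactly 1 region at a place, the edges fell close together. Among 146 such pairs the starts differed by a median of 157 bp and the ends by 221.5 bp, and in 100 pairs (68.5%) both edges lay within 500 bp. The largest shift was 7889 bp, at a start. Scores of the pairs had a Spearman rho of 0.71 and lengths one of 0.75, as descriptions across regions. Most pairs scored higher in replicate 1, 96 of the 146 against 50 in replicate 2, with a median difference of -0.05 (replicate 2 minus replicate 1). Of the 11 pairs with a score over 1 in both lists, 10 scored higher in replicate 1, and 25 pairs passed a score of 1 in replicate 1 against 12 in replicate 2. These counts compare the scores as deposited, and whether the lists share a zero point is not stated. Per the labels each replicate list had an input library of its own, and its part in such offsets was not tested.

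**Figure D4:**
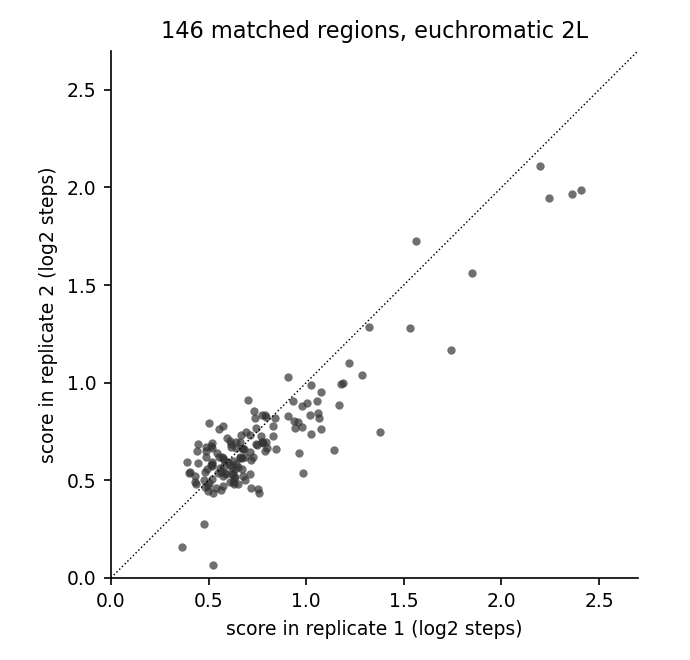
Score in replicate 2 (vertical) against score in replicate 1 (horizontal), both in log2 steps, for 146 regions matched one to one on the euchromatic 2L, with a dotted line of equality. Above a score of 1 in both lists, 10 of 11 points lie below the line, and 4 points with scores near 2 in both form a group of their own.

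At the distal end, the first region began at 21346 and was found in every list. It measured 2879 bp (score 0.59) in the combined list, 2537 bp (score 0.64) in replicate 1 and 2854 bp (score 0.69) in replicate 2. The next, at 88900 to 90342 (score 0.33), was in replicate 2 but not in replicate 1, and the third, at 106460 to 108360 (score 0.28), was in both. At the proximal border the last 3 members were short and weak, at 19812476 to 19813558 (score 0.38), 19814664 to 19816370 (score 0.34) and 19954350 to 19955538 (score 0.44), with 2 of them in neither replicate list. The first 3 regions beyond it, at 20070906 to 20071964 (score 0.40), 20081980 to 20083644 (score 0.37) and 20085096 to 20086896 (score 0.29), were of like length and score. No region crossed the border, so the limit cut through an empty stretch.

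The euchromatic 3L, taken in the same way without its last 3 Mb, gave values close to those of 2L. Coverage was 3.26% ± 0.368 on 2L against 3.29% ± 0.494 on 3L, a difference of -0.03 percentage points ± 0.126 that had opposite signs in the replicates (SD, n = 2 for each). Density was 12.5 ± 1.94 regions per Mb on 2L against 12.4 ± 2.92 on 3L, and empty 100 kb windows made up 37.8% ± 3.89 against 37.7% ± 5.26. With this border none of these differed by more than the spread between replicates. The coverage result depends on the border, since with all but the last 2 Mb of each arm the difference was 0.621 percentage points ± 0.177. With all but the last 5 Mb it was 0.0645 ± 0.00444 (SD, n = 2 for each), a change within the 0.126 above. The longest empty stretch was 1698 and 786.5 kb in the replicates on 2L, against 637.4 kb in each on 3L.

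The X, without its last 3 Mb, was covered far more densely. Coverage was 3.26% ± 0.368 on 2L against 12.4% ± 0.800 on X, a difference of -9.13 percentage points ± 0.432, and empty windows made up 37.8% ± 3.89 against 6.70% ± 2.19 (SD, n = 2 for each). Chains held 23.4% ± 5.12 of the regions on 2L and 55.2% ± 5.57 on X, and the median score was 0.62 ± 0.01 against 0.73 ± 0.02 (SD, n = 2 for each). Median lengths were 2022.5 bp ± 13.4 on 2L and 2122 bp ± 117.7 on X (SD, n = 2 for each). The difference of -99.25 bp ± 104.3 (SD, n = 2) had the same sign in both replicates but did not exceed their spread. Regions over 5000 bp were 6.51% ± 1.58 of the regions on 2L and 13.6% ± 3.07 on X, and held 20.6% ± 2.43 of the covered bases on 2L and 36.3% ± 5.12 on X (SD, n = 2 for each). The share of members in both replicate lists was close, at 32.1% on 2L, 32.5% on 3L and 33.0% on X. With 2 libraries, an exact two-sided sign permutation test of a difference between arms cannot give a p below 0.5, so these differences are set against the replicate spread only.

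**Figure D5:**
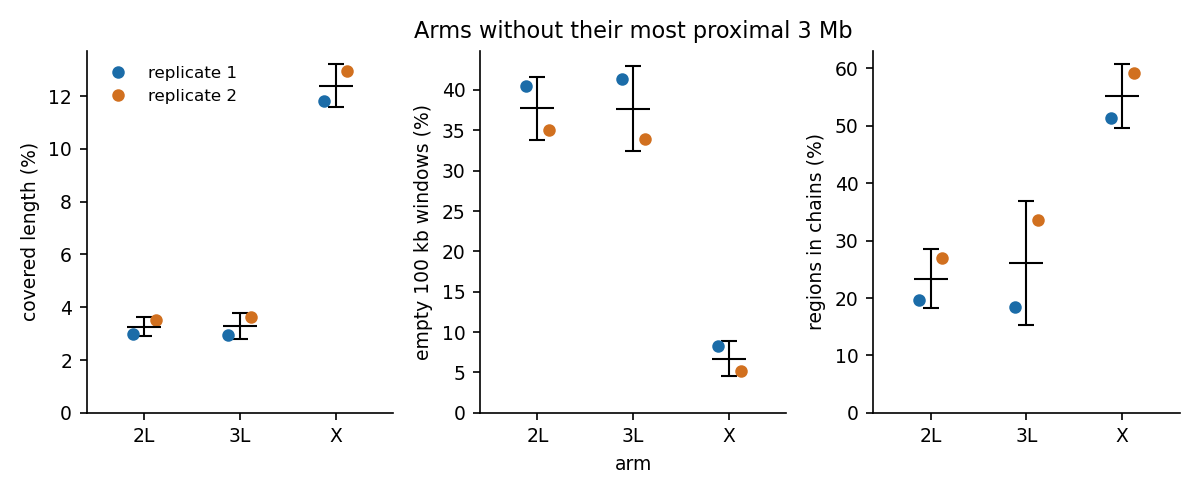
Covered length, empty 100 kb windows and regions in chains of at least 3 (each in %, axes from 0) for 2L, 3L and X without their most proximal 3 Mb. Points are the replicates, bars the mean ± SD (n = 2). On each measure 2L and 3L overlap, and X lies apart from both.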

How the data were processed

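Nuclei of wild-type 3rd instar larvae were profiled by H3K9me2 ChIP-seq in 2 ChIP and 2 input libraries. The submitters' processing notes name Bowtie 0.12.7, and per the file headers positions follow FlyBase release 5. The program that called regions, its threshold and the pooling of libraries are points not stated in the sources used here. The authors deposited 1 list of enriched regions per ChIP library and 1 combined list, each region with a score in an unstated unit. Depth per library is unknown, so no counting interval was given for a score or a coverage.

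Positions were used as deposited, 1-based. Regions of 2L ending at or before 20011544 were kept, and rows of depletion were left out. Coverage, gaps, windows of 100 kb and 1 Mb (the last window of each arm took the remainder), chains (gaps of at most 10 kb, at least 3 regions) and overlaps (at least 1 bp) were computed in Python 3.11.15 with NumPy 2.4.6 and SciPy 1.17.1. The measures returned the planted values on simulated lists. Replicate values are mean ± SD, n = 2. No test was run, because with 2 libraries the smallest p of an exact sign permutation test is 0.5. Differences between arms and between parts of the arm were taken within each library. Regions named in the text are the 8 longest and 8 highest-scoring members, those nearest the distal end and the border, the 8 chains with the most covered bases and the 5 longest empty stretches. The members and lists were chosen with earlier results of these data known. The best-scoring members in both lists were added after their values were seen, as were the members at the top score of replicate 1. Alternatives were a minimum length of 2000 bp, the 50% of regions with the highest scores, other borders, merging within 1000 bp, other windows and gaps, an overlap of 50%, and each replicate alone.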

Additional observations from a re-analysis of the deposited data

How the results depend on the processing

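Coverage, counts and spacing depend on which regions are kept. The position of the border mattered less for counts and spacing, but the 2 Mb border moved coverage and its difference from 3L. With regions of at least 2000 bp, the mean over the replicates was 131 regions, 2.31% covered, a median length of 2764.5 bp, a median score of 0.72, a median gap of 76.0 kb, 58.2% empty windows, 14.9% of regions in chains and a longest empty stretch of 2034 kb. With the 50% of regions that scored highest these were 125.5 regions, 2.13%, 2711 bp, 0.74, 80.1 kb, 59.0%, 7.61% and 2044 kb. Each filter shortens the lists and raises the median of the measure it selects on by its own rule. Merging within 1000 bp gave a median length of 2061 bp and 13.97% of regions in chains. Chains drawn with gaps of 5 kb and 20 kb held 15.0% and 36.1% of regions, and windows of 50 kb and 500 kb were empty in 59.2% and 2.50%. Leaving out only the last 2 Mb raised coverage to 3.91%.

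The Jaccard index was 0.572 with regions of at least 2000 bp, 0.521 with the highest-scoring 50%, and 0.570 and 0.542 with all but the last 2 and 5 Mb. Members in both replicates were 70.9% and 55.8%, and those in neither were 4.69% and 26.3%, at 2000 bp and in the highest-scoring 50%. With an overlap of 50% of the member they were 28.7% and 45.1%. The difference of 2L from 3L was 0.621 percentage points ± 0.177 with all but the last 2 Mb, against -0.03 ± 0.126 (SD, n = 2 for each), a change beyond the spread between replicates. With all but the last 5 Mb it was 0.0645 ± 0.00444 (SD, n = 2). That is above its own spread, but the change from -0.03 lay within the 0.126 of the main border. That from X was -7.24 with regions of at least 2000 bp and -8.65 with all but the last 5 Mb.

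With a single replicate, values ranged from 223 to 278 regions, 3.00% to 3.52% coverage, 2013 to 2032 bp, scores of 0.61 to 0.63, gaps of 29.0 to 41.7 kb, 35.0% to 40.5% empty windows, 19.7% to 27.0% in chains and longest empty stretches of 786.5 to 1698 kb. The difference from 3L ranged from -0.120 to 0.059 and that from X from -9.44 to -8.83. Leaving 14 to 16 Mb out of the proximal part was chosen after seeing the data. What lies behind these changes was not tested. No paired analysis was possible because inputs, numbered like the ChIP libraries, have no values of their own here. This holds for ChIP against input, while arms were compared within each library. Without read counts, a weak region absent from a list is not shown to lack the mark.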
